A study of Homo sapiens with 9 samples.

Results

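RET is a receptor tyrosine kinase that neural crest derivatives, among them sympathetic neuroblasts and neuroblastoma cells, carry on their surface. Its ligands are the GDNF-family growth factors GDNF, neurturin (NRTN), artemin (ARTN) and persephin (PSPN). A ligand first binds a GFRA coreceptor that is anchored in the membrane by a lipid, and the pair then brings RET molecules together so that they phosphorylate each other. GFRA1 prefers GDNF, GFRA2 prefers neurturin and GFRA3 prefers artemin. The group described here was chosen by gene symbol as RET, its coreceptors GFRA1, GFRA2 and GFRA3, and the ligands GDNF, NRTN and ARTN, 7 genes in all. Of these, 5 had a row among the 25084 genes of the table, while GDNF and NRTN gave no row by symbol or synonym and were not analysed here.

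The measurements are RNA sequencing of total RNA from LAN5, an established human neuroblastoma cell line with an amplified MYCN gene. All 9 libraries came from cells that were given an siRNA by nucleofection, which opens the membrane with an electric pulse, and were then kept in serum-containing RPMI-1640 medium for 72 h. The groups of 3 libraries each were siCTR with a control siRNA, siMYCN with the MYCN siRNA labelled siMYCN_2, and siHAND2 with the HAND2 siRNA labelled siHAND2_3. MYCN and HAND2 are transcription factors of the basic helix-loop-helix class. The labels name 1 siRNA per target and 1 cell line, so an effect of the siRNA sequence and an effect of its target cannot be told apart. They do not say whether the replicates were separate cultures, so p-values measure the spread between these libraries, which may be technical.

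Values are CPM, in which the reads of each gene are scaled to a common library total. The depth read from the smallest step between CPM values was 21.1 to 32.7 M reads per library, so that 1 CPM carried a counting error of 17.5% to 21.8%. Among replicates, siHAND2 replicate 3 lay farthest from its group, at a chi-square per degree of freedom of 8.93 and 8.17 against the other 2 libraries, while the other replicate pairs lay between 2.91 and 5.78. MYCN stood at 70.0% of its siCTR mean in siMYCN and at 49.6% in siHAND2, and HAND2 at 114% in siMYCN and 54.2% in siHAND2, so both knockdowns were partial and siHAND2 lowered both transcripts. Of the 10 markers of adrenergic neuroblastoma, 9 had a row, and their summed level was 2268 to 2403 CPM in siCTR, 2872 to 2953 CPM in siMYCN and 2456 to 2586 CPM in siHAND2. In siHAND2 3 of the 9 were higher and 2 were lower (limma, adjusted p of 0.05), beside 18.1% and 11.8% of all tested genes. In siMYCN 7 were higher, beside 24.5% of all tested genes. The 2 that fell in siHAND2 were DBH, the enzyme that makes noradrenaline, with means of 263 CPM in siCTR, 344 CPM in siMYCN and 130.1 CPM in siHAND2, and TH, the first enzyme of that pathway, with 2.95, 4.08 and 1.43 CPM. In the same list the siHAND2 means of STMN2, ISL1 and GAP43 lay above siCTR, at 343 against 177, 313 against 202 and 61.4 against 35.5 CPM. Endothelial and leukocyte markers summed to at most 1.19 and 1.39 CPM in any library.

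RET itself moved in opposite directions in the knockdowns: its transcript rose by a factor of 1.78 in siMYCN and fell to 70.8% of the control in siHAND2. RET (chromosome 10, 43077064 to 43130351, plus strand, GRCh38) stood at 381, 363 and 365 CPM in the siCTR libraries. The siMYCN libraries had 683, 639 and 655 CPM, and those of siHAND2 had 267, 253 and 265 CPM. The groups did not overlap, with every siMYCN library above and every siHAND2 library below all 3 siCTR libraries. The means were 369 ± 9.78 CPM in siCTR, 659 ± 22.3 CPM in siMYCN and 261 ± 7.39 CPM in siHAND2 (SD, n = 3 libraries each). On the log2(CPM + 1) scale, which understates the change of genes near 1 CPM, the change was 0.83 in siMYCN (standard error 0.04, adjusted p = 2.44e-09 by limma with Benjamini-Hochberg adjustment). In siHAND2 it was -0.50 (standard error 0.04, limma, adjusted p = 1.33e-07), and both comparisons use the same siCTR libraries. The fold of siHAND2 to siMYCN, which does not use the level of the controls although their spread enters the error, was -1.33 (95% interval -1.42 to -1.24, limma, adjusted p = 9.03e-13). In bulk RNA, fewer cells that carry a transcript and less of it per cell cannot be told apart.

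These results have to be read against the share of all genes that changed. Among 14495 tested genes, 35.9% were called in siMYCN at an adjusted p of 0.05 (24.5% higher, 11.4% lower) and 29.9% in siHAND2 (18.1% higher, 11.8% lower), and 26.9% in siHAND2 against siMYCN. For a gene's 3 libraries to lie all above or all below the other 3 was also common: 33.4% of genes lay above and 16.1% below in siMYCN, and 25.8% above and 16.6% below in siHAND2. Between the knockdowns, siHAND2 lay above siMYCN for 17.1% and below it for 21.6%. The share of calls that were higher depended on the scaling of the libraries. In siMYCN it was 68.3% on the deposited scale, 50.6% when libraries were rescaled by median ratios and 49.3% when they were quantile normalized. In siHAND2 it was 60.6%, 45.6% and 47.8%. In siHAND2 against siMYCN it was 42.4%, 48.7% and 51.9%. After median-ratio rescaling and quantile normalization, 4759 and 4728 of all 14495 tested genes were called in siMYCN, and 4250 and 4147 in siHAND2. Shares of all genes higher or lower that stand beside the lists below are those of the deposited scale. The RET change ranged from 0.77 to 0.87 in siMYCN and from -0.54 to -0.47 in siHAND2 over all alternatives and left-out libraries. Without siHAND2 replicate 3, the library that lay apart, it was -0.51 in siHAND2 (limma, adjusted p = 2.03e-07).

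**Figure D1:**
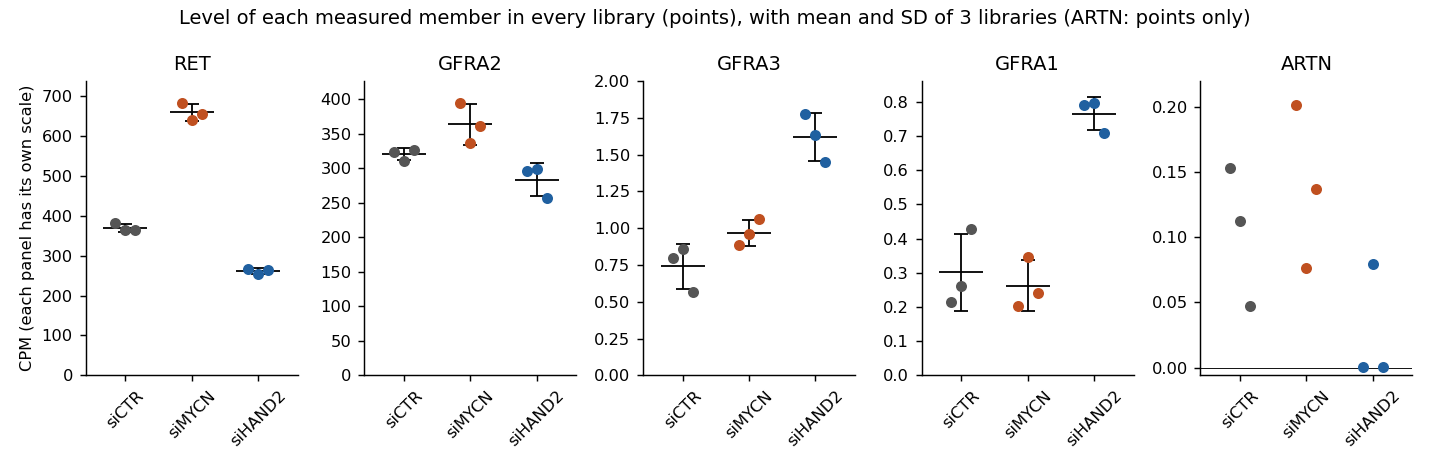
Level in CPM (y axis, a linear scale of its own in each panel) of RET, GFRA2, GFRA3, GFRA1 and ARTN in the 9 libraries (points, by siRNA group on the x axis), with the mean (long bar) and SD of 3 libraries except for ARTN. RET lies at 639 to 683 CPM in siMYCN and at 253 to 267 CPM in siHAND2, on either side of 363 to 381 CPM in siCTR, while GFRA1 and GFRA3 are highest in the siHAND2 libraries.

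The promoter of RET is shown because both targeted factors belong to a class that binds the E-box, whose letters are CANNTG. RefSeq (GRCh38) gives RET 2 starts. The first window, chr10:43076819-43077118, plus strand, lies around a start 5 bases from that of the gene in the table, and the second, chr10:43104515-43104814, plus strand, lies inside the gene. Each runs from 250 bases before to 50 bases after the start, written 5′ to 3′ in lower case with every CANNTG in capitals.
RET first start: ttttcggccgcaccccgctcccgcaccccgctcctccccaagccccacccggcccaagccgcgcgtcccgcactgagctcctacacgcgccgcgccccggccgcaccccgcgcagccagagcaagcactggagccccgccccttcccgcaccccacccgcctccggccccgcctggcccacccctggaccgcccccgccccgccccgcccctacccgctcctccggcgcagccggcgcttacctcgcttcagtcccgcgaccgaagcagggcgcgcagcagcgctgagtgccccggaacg
RET second start: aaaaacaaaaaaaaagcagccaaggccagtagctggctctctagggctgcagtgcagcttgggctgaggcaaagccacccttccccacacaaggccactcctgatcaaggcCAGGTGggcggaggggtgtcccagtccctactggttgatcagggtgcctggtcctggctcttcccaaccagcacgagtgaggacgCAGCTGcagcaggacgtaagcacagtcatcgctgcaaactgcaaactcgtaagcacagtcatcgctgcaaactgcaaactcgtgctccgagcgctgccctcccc
The first window, 78.7% of whose bases are G or C, holds no CANNTG. The second, with 58.7% G or C, holds a CAGGTG at -139 and a CAGCTG at -54 from the start. Neither holds CACGTG, the E-box that MYC proteins prefer, or CATCTG or its reverse complement CAGATG, an E-box that HAND proteins bind. Both strands were searched, and each of these letter strings is also a case of the general E-box. Of 35116 RefSeq promoter windows of 300 bases, 7.26% hold CACGTG, 14.7% hold CATCTG or CAGATG and 68.7% hold any CANNTG. These are matches of letters, not binding sites, and the table does not tell which start the RET reads came from.

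GFRA2 was the coreceptor with the highest level, and it moved in the same directions as RET by a smaller amount. GFRA2 (chromosome 8, 21690398 to 21812357, minus strand, GRCh38) stood at 324, 310.3 and 327 CPM in the siCTR libraries. The siMYCN libraries had 395, 336 and 360.5 CPM, and those of siHAND2 had 296, 298 and 256 CPM. The 3 siMYCN libraries lay above and the 3 siHAND2 libraries below the 3 siCTR libraries; siMYCN replicate 2 and siCTR replicate 3 were closest. Group means came to 320.3 ± 8.79, 364 ± 29.5 and 284 ± 23.5 CPM (SD, n = 3 each). The change was 0.18 in siMYCN (standard error 0.06, limma, adjusted p = 0.0306) and -0.18 in siHAND2 (limma, adjusted p = 0.0367). Both calls were close to the threshold. In siMYCN it was lost without siCTR replicate 1 (0.19), siCTR replicate 2 (0.16), siMYCN replicate 1 (0.12) or siMYCN replicate 3 (0.18), and after either rescaling. In siHAND2 it was lost without siCTR replicate 1 (-0.17), siCTR replicate 2 (-0.20), siCTR replicate 3 (-0.16) or siHAND2 replicate 3, where it fell to -0.11. The difference between the knockdowns was -0.36 (95% interval -0.49 to -0.23, limma, adjusted p = 0.00031), with all 3 siHAND2 libraries below all 3 siMYCN libraries, and it kept its call in every alternative and without any 1 library. A pseudogene on the other strand, OR6R2P, lies inside GFRA2 and measured at most 0.177 CPM in any library.

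Levels of different genes were compared per length of transcript, since a longer transcript gives more reads. With the GENCODE canonical transcripts (5617 bases for RET, 4991 bases for GFRA2), RET stood at 65.8 ± 1.74 and GFRA2 at 64.2 ± 1.76 CPM per kb in siCTR (SD, n = 3 libraries). Among 18053 genes with such a length, they ranked 825 and 850 from the top in siCTR. The ratio of GFRA2 to RET, both per kb, was 0.957 and 0.962 in siCTR replicates 1 and 2 and just above 1 in replicate 3. It was 0.65, 0.592 and 0.62 in siMYCN and 1.25, 1.33 and 1.09 in siHAND2. The ratio was thus near 1 in the controls, below it in every siMYCN library and above it in every siHAND2 library. RET, which divides the ratio, separated the groups by itself. Its log2 change was larger than that of GFRA2 (0.83 against 0.18 in siMYCN, -0.50 against -0.18 in siHAND2). The separation of the ratio is therefore not a result apart from the change of RET, and no share over other gene pairs was computed. Per kb, the other measured members were lower by a wide margin: in siCTR, GFRA3 stood at 0.373 ± 0.0769, ARTN at 0.033 to 0.106 and GFRA1 at 0.0329 ± 0.0122 CPM per kb. In siCTR the libraries of RET and GFRA2 overlapped on this scale, as did those of ARTN and GFRA1.

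**Figure D2:**
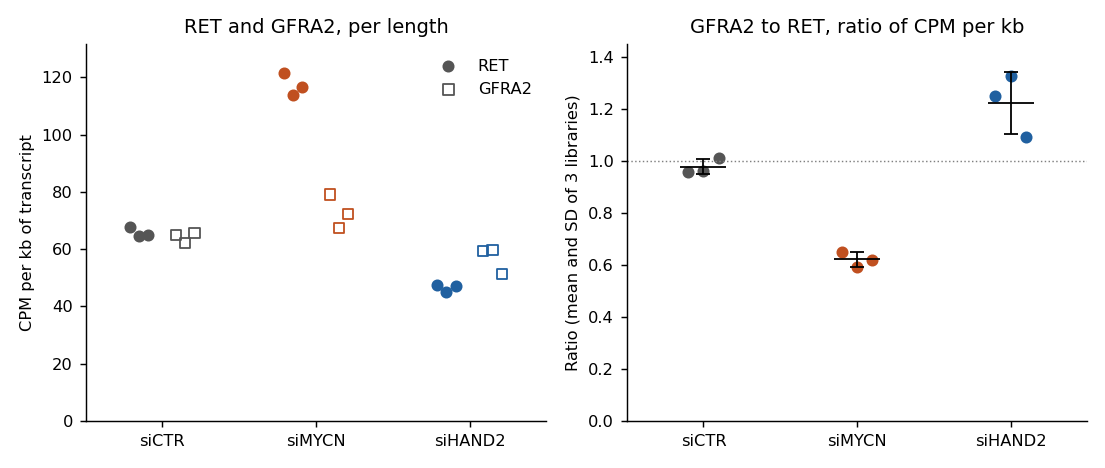
Left, CPM per kb of canonical transcript (y axis, linear) of RET (filled circles) and GFRA2 (open squares) in the 3 libraries of each siRNA group (x axis). Right, the ratio of GFRA2 to RET on that scale per library with mean and SD: 0.976 ± 0.0289 in siCTR, 0.621 ± 0.0294 in siMYCN and 1.22 ± 0.12 in siHAND2, with a dotted line at equal levels.

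The other coreceptors, GFRA3 and GFRA1, were near the lower end of what was measured, and both were higher in siHAND2. GFRA3 (chromosome 5, 138252380 to 138274621, minus strand) stood at 0.795, 0.861 and 0.57 CPM in the siCTR libraries. The siMYCN libraries had 0.886, 0.959 and 1.06 CPM, and those of siHAND2 had 1.78, 1.63 and 1.45 CPM. All siHAND2 libraries lay above the other 6. Among tested genes 25.8% lay above siCTR and 17.1% above siMYCN in this way, and the share above both was not computed. The CPM step gave these as 26, 23 and 12 reads in siCTR and 54, 41 and 41 reads in siHAND2. From 61 reads in the siCTR libraries together to 136 in siHAND2, the level relative to depth rose by a factor of 2.14 (95% interval 1.57 to 2.95, exact binomial, counting error only). GFRA3 met the filter, which asked for 1 CPM or more in 3 libraries or more, through the siHAND2 libraries and siMYCN replicate 3, so that its presence among the tested genes is tied to its rise. In the fit of all 25084 genes without a filter, where 16.2% passed in siHAND2, its change there was 0.59 (limma, adjusted p = 0.00121). In siMYCN it was 0.18, which did not pass (limma, adjusted p = 0.299). The difference of siHAND2 from siMYCN was 0.41 (limma, adjusted p = 0.0156). Among the filtered genes the adjusted p values were 0.00175, 0.276 and 0.0202 (limma), and there the call between the knockdowns was lost without siMYCN replicate 1 (0.38), siHAND2 replicate 1 (0.37) or siHAND2 replicate 2 (0.41).

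GFRA1 (chromosome 10, 116056925 to 116273467, minus strand) measured 0.214, 0.262 and 0.427 CPM in siCTR, which were 7, 7 and 9 reads. In siMYCN it measured 0.201, 0.345 and 0.24 CPM (5, 9 and 7 reads), and in siHAND2 0.789, 0.797 and 0.709 CPM (24, 20 and 20 reads). The siMYCN libraries overlapped the controls, and each siHAND2 library lay above all 6 others. The share of all genes that did so was not computed. The 64 reads in siHAND2 against 23 in siCTR gave a ratio of 2.67 relative to depth (95% interval 1.64 to 4.51, exact binomial, counting error only). In siMYCN the ratio was 0.918 (95% interval 0.483 to 1.73). GFRA1 failed the filter, and in a fit without a filter, where 16.2% of 25084 genes passed in siHAND2, its change was 0.44 (standard error 0.08, limma, adjusted p = 0.00173). The same fit gave -0.04 in siMYCN (95% interval -0.22 to 0.14, limma, adjusted p = 0.816), where 18.5% passed. Its difference of siHAND2 from siMYCN was 0.48 (limma, adjusted p = 0.000819), where 14.9% passed. At a pseudocount of 0.1, which compresses low values less, the siHAND2 change of GFRA1 was 1.14 and that of GFRA3 was 1.04. Without siHAND2 replicate 3 the change of GFRA1 was 0.47 (limma without a filter, adjusted p = 0.00359). That of GFRA3 was 0.64 (limma among the filtered genes, adjusted p = 0.00292). The GFRA3 value at a pseudocount of 0.1 is also from the filtered genes, where its presence is tied to its rise.

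RefSeq promoter windows of these coreceptors are shown for comparison with RET, in the same form: GFRA1 at chr10:116272426-116272725, minus strand, the nearest of 4 starts and 992 bases from that of the table, and GFRA3 at chr5:138274572-138274871, minus strand.
GFRA1: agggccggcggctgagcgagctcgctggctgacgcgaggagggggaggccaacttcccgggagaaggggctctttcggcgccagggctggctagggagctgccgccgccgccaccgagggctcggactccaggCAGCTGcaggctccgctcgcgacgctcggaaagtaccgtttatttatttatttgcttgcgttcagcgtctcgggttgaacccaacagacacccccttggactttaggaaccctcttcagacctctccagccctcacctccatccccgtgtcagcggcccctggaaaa
GFRA3: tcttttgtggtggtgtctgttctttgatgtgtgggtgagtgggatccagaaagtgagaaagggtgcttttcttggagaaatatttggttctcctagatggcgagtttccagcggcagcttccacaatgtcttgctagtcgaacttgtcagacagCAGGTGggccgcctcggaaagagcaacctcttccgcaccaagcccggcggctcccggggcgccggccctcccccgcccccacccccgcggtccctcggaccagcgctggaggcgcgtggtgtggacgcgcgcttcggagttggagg
Each window holds 1 E-box. In GFRA1 it reads CAGCTG and begins at -117 from the start. In GFRA3 it reads CAGGTG and begins at -96. The preferred letters of MYC and HAND proteins given above were in neither window. GFRA2 was left out of this comparison.

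Markers of other cells were set beside these rises. Of 7 fibroblast or mesenchymal markers, 6 were tested and all 6 were higher in siHAND2 (limma, adjusted p of 0.05), beside 18.1% of all tested genes. The 7 markers together summed to 217 to 232 CPM in siCTR, 266 to 274 CPM in siMYCN and 563 to 643 CPM in siHAND2. Most of that sum was PDGFRA and PDGFRB, growth factor receptors whose means went from 121 to 341 CPM and from 89.8 to 179 CPM between siCTR and siHAND2. The matrix genes LUM, COL1A2, DCN and COL3A1 went from 9.15 to 54.7, from 1.66 to 15.9, from 0.431 to 11 and from 1.42 to 3.84 CPM, while COL1A1 stayed under 1 CPM in all 9 libraries. In siMYCN, 5 of the 6 were higher, beside 24.5% of all tested genes. At a siCTR mean of 0.431 CPM, DCN could not meet the filter through the siCTR libraries alone. Its presence among the tested genes is tied to its rise. The 6 Schwann cell or glia markers had rows but none reached the filter, and they summed to 2.25 to 2.97 CPM in siCTR, 3.19 to 3.44 CPM in siMYCN and 2.6 to 2.75 CPM in siHAND2. The part of these marker genes in the rise of GFRA1 and GFRA3 was not tested.

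Among the ligands, ARTN (chromosome 1, 43933320 to 43937240, plus strand), which encodes artemin, was at the limit of detection. It had 5, 3 and 1 reads in siCTR, 5, 2 and 4 reads in siMYCN, and 2 reads in siHAND2 replicate 2, while siHAND2 replicates 1 and 3 were listed at 0 reads. Its 2 reads in siHAND2 against 9 in siCTR gave a ratio of 0.214 relative to depth (95% interval 0.0225 to 1.03, exact binomial). No change passed at this depth: in the fit without a filter it was -0.11 in siHAND2 (limma, adjusted p = 0.299) and 0.04 in siMYCN (limma, adjusted p = 0.727). The difference of siHAND2 from siMYCN was -0.149 (95% interval -0.282 to -0.016, limma, adjusted p = 0.135), on 2 reads against 11. PSPN, the fourth ligand of the family, had a siCTR level of 4.00 ± 0.474 CPM, beside 4.79 ± 0.607 CPM with siMYCN and 4.18 ± 0.497 CPM with siHAND2 (SD, n = 3 libraries). GDF15, a more distant ligand that signals through RET together with the coreceptor GFRAL, measured 1.51 ± 0.253, 1.76 ± 0.0837 and 1.59 ± 0.132 CPM. Neither passed the test in any comparison (limma, 0 of 2 genes, and also 0 at an unadjusted p of 0.05), and GFRA4 and GFRAL were not analysed here.

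The proteins that attach to activated RET and carry its signal were taken as a list of 28 adaptors and effectors, of which 24 could be tested. In siMYCN 14 of the 24 rose and the other 10 did not pass (limma, adjusted p of 0.05, against 24.5% of all genes higher), with a median log2 change of 0.20 beside 0.06 over all genes tested. After either rescaling 10 rose, with 50.6% (median ratios) and 49.3% (quantile) of the calls among all genes higher. The largest rise was that of SHC1, an adaptor that links phosphorylated RET to the RAS pathway, from 63.0 ± 2.27 to 99.4 ± 3.80 CPM (log2 change 0.65, limma, adjusted p = 9.31e-08). SRC, a kinase that binds RET, went from 44 ± 1.06 to 68.1 ± 3.53 CPM (0.62, adjusted p = 7.72e-07). GAB2, a docking protein on the way to PI3 kinase, went from 129 ± 7.61 to 189 ± 10.6 CPM (0.55, adjusted p = 1.10e-06). In each of these 3 genes, the 3 siMYCN libraries lay above the 3 siCTR libraries.

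In siHAND2, 11 of the 24 adaptors and effectors rose, 1 fell and 12 did not pass (limma, adjusted p of 0.05). Among all tested genes 18.1% were higher and 11.8% lower. The median of the list was 0.11 beside 0.04 over all genes tested. After median-ratio rescaling 9 rose and 5 fell, where 45.6% of the 4250 calls among all genes were higher. After quantile normalization 10 rose and 3 fell, where 47.8% of the 4147 calls among all genes were higher. The gene that fell was DOK4, which encodes a docking protein that binds phosphorylated RET and is known for its part in neurite outgrowth. DOK4 (chromosome 16, 57471922 to 57487327) stood at 160, 141 and 178 CPM in the siCTR libraries. The siMYCN libraries had 227, 185 and 219 CPM, and those of siHAND2 had 53.1, 53.5 and 54.3 CPM. Its levels thus took the same order as those of RET, highest in siMYCN and lowest in siHAND2, without overlap. With siHAND2, DOK4 was at 33.7% of the control, a change of -1.55 (limma, standard error 0.08, adjusted p = 2.74e-10). In siMYCN it was 0.40 (adjusted p = 0.00066), and the difference between the knockdowns was -1.95 (adjusted p = 1.20e-11). Without siHAND2 replicate 3 DOK4 stood at -1.56 in siHAND2.

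The largest rises on the list in siHAND2 were those of PIK3R1, the regulatory subunit of PI3 kinase, and PDLIM7, a scaffold protein that binds RET. PIK3R1 went from 48.7 ± 2.71 to 73.6 ± 1.60 CPM (0.59, limma, adjusted p = 1.43e-07) and PDLIM7 from 14.9 ± 1.09 to 22.2 ± 2.06 CPM (0.54, limma, adjusted p = 3.89e-05). Both also rose in siMYCN, by 0.36 (adjusted p = 3.43e-05) and 0.38 (adjusted p = 0.000941). SHC1 and SRC, which rose most in siMYCN, rose less in siHAND2, by 0.27 and 0.22. Set against siMYCN, the siHAND2 libraries gave -0.38 for SHC1 (limma, adjusted p = 2.00e-05) and -0.39 for SRC (limma, adjusted p = 6.90e-05). GAB2 did not pass in siHAND2 (-0.07, limma, adjusted p = 0.312) and was lower there than in siMYCN by 0.62 (limma, adjusted p = 1.39e-07). In that direct comparison, 3 of the 24 were higher, 10 were lower and 11 did not pass, against 11.4% of all genes higher and 15.5% lower.

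**Figure D3:**
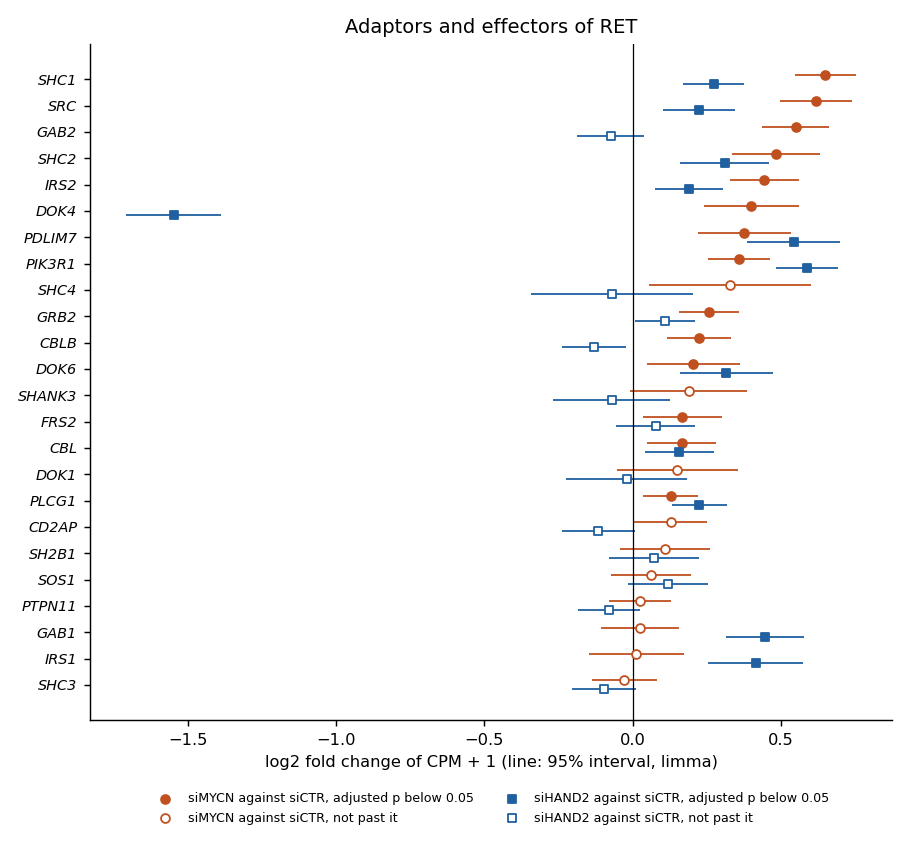
Log2 fold change of CPM + 1 (x axis, with 95% intervals from limma) of the 24 tested adaptors and effectors of RET (y axis) in siMYCN (circles) and siHAND2 (squares) against siCTR, with filled symbols for an adjusted p below 0.05. In siMYCN 14 of the 24 are filled, all to the right of 0, and in siHAND2 DOK4 stands alone at -1.55 among 11 filled symbols to the right.

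A further list held 10 genes known to follow Ret signalling in the developing kidney, a different tissue, of which 8 were tested. In siMYCN 5 of the 8 rose and 3 did not pass (limma, adjusted p of 0.05, against 24.5% of all genes higher). Their median was 0.41 beside 0.06 over all genes tested. After quantile normalization 1 more gene of the 8, MYB, was called lower. DUSP6, a phosphatase that ERK signalling induces and that switches ERK off, stood at 118, 118 and 105 CPM in the siCTR libraries and at 204, 208 and 218 CPM in those of siMYCN. Its change of 0.88 (standard error 0.05, limma, adjusted p = 1.39e-08) was the largest of the list, with all 3 siMYCN libraries above the controls. ETV4 and ETV5, transcription factors of the ETS family, rose from 53.2 ± 2.69 to 78.9 ± 4.84 CPM (0.56, limma, adjusted p = 3.37e-06) and from 65.7 ± 0.211 to 95.4 ± 3.48 CPM (0.53, limma, adjusted p = 3.14e-07).

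In siHAND2, 2 of these 8 genes rose, 3 fell and 3 did not pass (limma, adjusted p of 0.05). Among all tested genes 18.1% were higher and 11.8% lower. After either rescaling 1 of the 8 rose and 3 fell. ETV4 fell to 38.3 ± 2.69 CPM (-0.47, limma, adjusted p = 2.21e-05) and ETV5 to 50.5 ± 1.57 CPM (-0.37, limma, adjusted p = 9.77e-06), in both with all 3 libraries below the controls. DUSP6 measured 98.95, 95.3 and 106 CPM, which overlapped the controls, and its change was -0.18 (limma, adjusted p = 0.0151). That call was lost without siCTR replicate 1 (-0.16), siCTR replicate 2 (-0.15) or siHAND2 replicate 2 (-0.15), and in each of those fits 3 of the 8 genes passed in place of 5. CXCR4, a chemokine receptor, went the other way, from 332 ± 4.39 to 386 ± 10.8 CPM (0.22, limma, adjusted p = 0.000403), and it also rose in siMYCN by 0.31 (limma, adjusted p = 1.18e-05). Between the knockdowns, siHAND2 was lower for 4 of the 8 genes, against 15.5% of all tested genes. DUSP6 stood at -1.06, ETV4 at -1.02 and ETV5 at -0.90 (limma, adjusted p = 1.62e-10, 1.52e-09 and 1.84e-10).

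**Figure D4:**
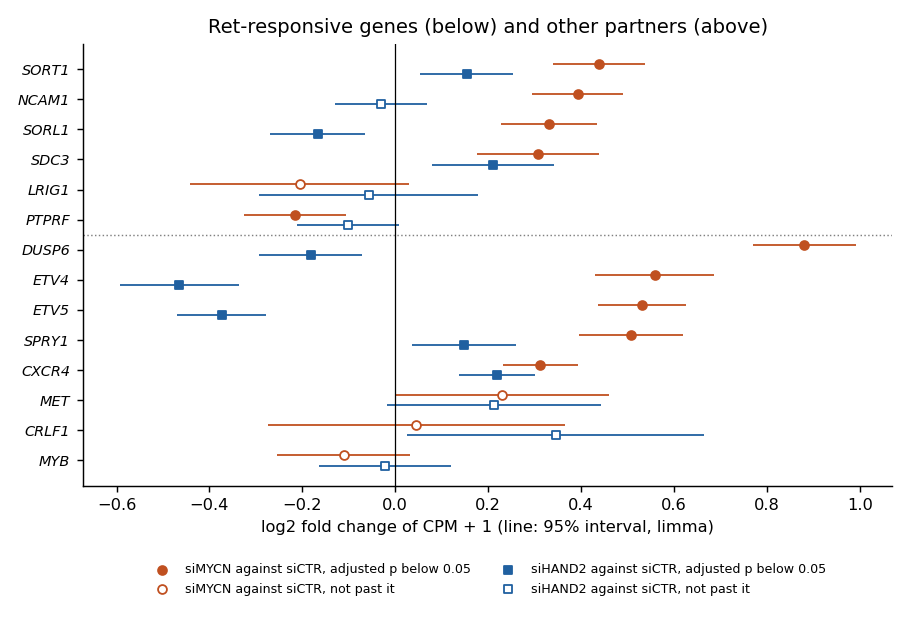
Log2 fold change of CPM + 1 (x axis, with 95% intervals from limma) in siMYCN (circles) and siHAND2 (squares) against siCTR for the 8 tested genes known to follow Ret signalling in kidney (below the dotted line) and 6 tested membrane partners of RET and its coreceptors (above it), filled for an adjusted p below 0.05. DUSP6, ETV4 and ETV5 lie at 0.53 to 0.88 in siMYCN and at -0.47 to -0.18 in siHAND2. CXCR4 (0.31 and 0.22) and SPRY1 (0.51 and 0.15, named after its value was seen) are filled to the right of 0 in both.

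Other membrane proteins that bind the ligands, the coreceptors or RET formed a list of 7, of which 6 were tested. In siMYCN 4 rose, 1 fell and 1 did not pass (limma, adjusted p of 0.05, against 24.5% of all genes higher and 11.4% lower). Their median was 0.32 beside 0.06 over all genes tested. The gene that fell was PTPRF, a receptor phosphatase known to act on RET (-0.22, limma, adjusted p = 0.00386), named after its value was seen. NCAM1, an adhesion molecule that can act with GFRA1 as a receptor for GDNF without RET, measured 367 ± 17.8 CPM in siCTR, 482 ± 11.9 CPM in siMYCN and 359.8 ± 17.8 CPM in siHAND2 (SD, n = 3 libraries). It rose by 0.39 in siMYCN (limma, adjusted p = 8.38e-06) with all 3 libraries above the controls, and its change in siHAND2 was -0.03 (95% interval -0.13 to 0.07, limma, adjusted p = 0.665). The sorting receptors SORT1 and SORL1, the latter known to carry GDNF and GFRA1 inside the cell, rose in siMYCN by 0.44 (limma, adjusted p = 3.19e-06) and 0.33 (limma, adjusted p = 6.72e-05).

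In siHAND2 2 of the 6 membrane partners rose, 1 fell and 3 did not pass (limma, adjusted p of 0.05). Among all tested genes 18.1% were higher and 11.8% lower, so these counts among 6 genes are not a result about the list. After either rescaling 1 rose and 1 fell. Without siCTR replicate 2 no gene of the list passed. SORL1 fell from 111 ± 7.26 to 98.6 ± 1.77 CPM (-0.17, limma, adjusted p = 0.0157), a call also lost without siCTR replicate 1 (-0.13). SORT1 changed by 0.15 (limma, adjusted p = 0.021), a call also lost without siCTR replicate 3 (0.14), without siHAND2 replicate 1 (0.12) or after median-ratio rescaling (0.11). The heparan sulfate proteoglycan SDC3 changed by 0.21 (limma, adjusted p = 0.0168), a call also lost without siHAND2 replicate 2 (0.19) or after quantile normalization (0.17).

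Transcription factors known to act on the RET gene in neural crest cells, gut neurons or neuroblastoma made up the last list, 11 genes of which 7 were tested. In siHAND2 5 of the 7 passed (limma, adjusted p of 0.05, beside 29.9% of all tested genes), with 3 calls without siHAND2 replicate 2 or after quantile normalization. The retinoic acid receptor gene RARB rose in siHAND2 from 24.1 ± 1.42 to 42.0 ± 1.98 CPM (0.77, limma, adjusted p = 1.11e-07). The homeobox gene TLX2, known from gut neurons, went from 91.9 ± 7.98 to 130 ± 18.7 CPM (0.49, limma, adjusted p = 0.000731), and neither it nor RARB passed in siMYCN (0.12 and 0.07). In siMYCN 3 of the 7 rose and 4 did not pass, beside 24.5% of all tested genes higher, and 1 of 7 passed after either rescaling or without siMYCN replicate 1. A share of this size among 7 genes is not a result about the list. Among the 3 was RARA, from 19.8 ± 0.206 to 24 ± 1.84 CPM (0.26, limma, adjusted p = 0.01), a call lost after quantile normalization (0.18).

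Genes most like each member were found by the Pearson correlation of log2(CPM + 1) over the 9 libraries among genes that averaged 5 CPM or more. These correlations are descriptions over libraries that share their groups, so the differences between the groups enter every one. For RET, the first 4 of 11200 genes were DOC2B (0.996), ABHD2 (0.995), PACS1 (0.995) and PCDH17 (0.995). DOC2B, which encodes a calcium sensor of vesicle release, measured 23.0 ± 0.93 CPM in siCTR, 36.4 ± 1.13 CPM in siMYCN and 16.7 ± 0.254 CPM in siHAND2. PCDH17, a protocadherin, measured 96.7 ± 3.64, 145 ± 1.65 and 75.4 ± 1.91 CPM. Since these genes were chosen for their likeness to RET in the same libraries, their directions follow from the choice and were not tested.

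For GFRA2 the first 4 genes were SYDE1 (0.984), SAPCD2 (0.978), BTBD2 (0.977) and ARHGDIA (0.975). Their levels followed single libraries as well as groups: in all 4, as in GFRA2, siHAND2 replicate 3 was the lowest library and siMYCN replicate 1 the highest. For GFRA3 they were C2orf68 (0.993), STK32A (0.988), NCAN (0.981) and FAM217B (0.981). These too were chosen on the same libraries, and their directions were not tested. NCAN, a proteoglycan of the neural matrix, measured 29.7 ± 1.26 CPM in siCTR and 44.3 ± 3.69 CPM in siHAND2.

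**Figure D5:**
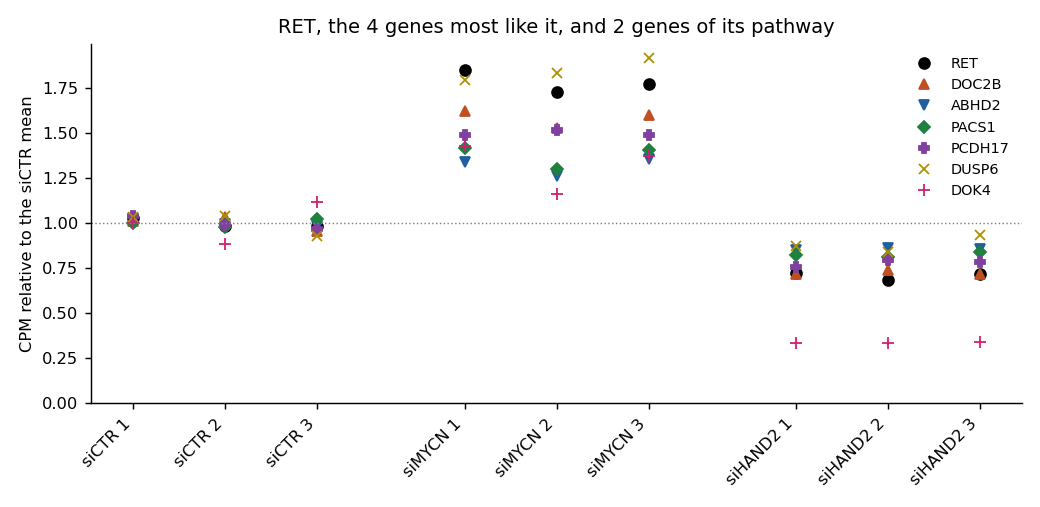
CPM divided by the siCTR mean of the same gene (y axis, linear) in each of the 9 libraries (x axis) for RET, the 4 genes most correlated with it, and DUSP6 and DOK4, which were picked for this plot after their values were seen. All 7 lie above the dotted line at the siCTR mean in siMYCN and below it in siHAND2, where DOK4 is lowest.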

How the data were processed

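The authors deposited 1 table of CPM values for 9 libraries. The reads were aligned with STAR 2.5.1 and processed with Partek, per the submitters' processing notes, which list hg19 and GRCh37. The coordinates in the table are nevertheless those of GRCh38: 90.9% of 18215 gene ends lay within 5000 bases of RefSeq GRCh38 and 5.59% within that distance of a GRCh37 annotation. Ends are given as 1 base before the stop in the table. Which tool counted the reads, and whether by strand, is not given in the sources used here. A constant of 0.0001 is in every value. In each library 79.3% to 80.8% of low values (20 steps or less) fell within 0.02 of a whole multiple of the step, too few for a count model.

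Tests used limma 3.58.1 in R 4.3.3 on log2(CPM + 1), with an intensity trend and 1 mean per group over all 9 libraries. Tested were genes at 1 CPM or more in 3 libraries or more (14495; 10589 left out). Of the members, 3 passed; GFRA1 and ARTN were fitted without the filter, and GFRA3 both ways. Tests were two-sided, adjusted by Benjamini-Hochberg over all genes, with a threshold of 0.05. Intervals on reads are exact at 95% and cover counting error only. The model was also run on simulated data, for siMYCN against siCTR only. That simulation set the same spread beyond counting error for every gene and held no outlying library. It does not check the calls reported here.

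Named are all members, PSPN, GDF15 and NCAM1, up to 3 called genes of each list with the largest change per knockdown, and the 4 genes most like each member with a mean of at least 1 CPM. Values of part of the list of RET regulators are not reported here. The members, lists and alternatives were chosen with earlier results of these data known. Transcript lengths are from GENCODE and sequences from RefSeq (GRCh38). The alternatives were other pseudocounts, filters and scalings, a fit of 2 groups, no intensity trend, a replicate block and each library left out.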

Additional observations from a re-analysis of the deposited data

How the results depend on the processing

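RET kept its direction and call in all 3 comparisons under each of the 18 alternatives, and GFRA1 kept its call in siHAND2 and between the knockdowns under its 16. In siMYCN, where GFRA1 was not called (-0.04), it changed sign without siCTR replicate 3 (0.03). No named gene that was called changed sign; among values that were not called, 23 alternatives over 9 results did. GFRA2 lost its call in siMYCN with no filter (0.18), median-ratio rescaling (0.12), quantile normalization (0.13) and no intensity trend (0.18), and in siHAND2 with no filter (-0.18) and no intensity trend (-0.18). Leaving out 1 library at a time gave 0.12 to 0.24 for GFRA2 in siMYCN, -0.22 to -0.11 in siHAND2, and 0.37 to 0.46 for GFRA3 in siHAND2 against siMYCN. In siMYCN 2 of the 3 members that met the filter were called, beside 35.9% of all tested genes. The number of members called there went from 2 to 1 with no filter, either rescaling or no intensity trend, and was 1 to 2 with a library left out.

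Calls among the RET regulators in siMYCN went from 3 to 1 after either rescaling (1 to 4 with a library left out). In siHAND2 they went from 5 to 3 after quantile normalization (3 to 5 with a library left out). In siHAND2 against siMYCN 5 of the 7 tested regulators passed, beside 26.9% of all tested genes. These calls went from 5 to 3 after quantile normalization and with no intensity trend (3 to 5 with a library left out). With no intensity trend the kidney genes went from 5 to 3 in siHAND2 (3 to 5 with a library left out) and the membrane partners from 3 to 1 (0 to 3 with a library left out). A filter of 5 CPM removed GFRA3, GFRA1, ARTN, PSPN and GDF15 and gave no value for them. The cause of each loss was not tested.

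The labels do not say what a replicate number stands for, and it was not taken to pair libraries, since not every same-numbered pair deviated together at a correlation over 0.1. The data hint at a partial pairing: 6 of 9 same-numbered pairs (-0.04 to 0.31), all those of replicates 1 and 3, were over 0.1, against 2 of 18 differently numbered pairs (-0.30 to 0.14), and 6 of 9 libraries correlated best with their own number in both other groups. With the replicate block, 5895 genes were called in siMYCN in place of 5209, 5089 in place of 4339 in siHAND2 and 4689 in place of 3892 between the knockdowns, and RET stayed at 0.83, -0.50 and -1.33. At 21.1 to 32.7 M reads per library, the changes of GFRA1, GFRA3 and ARTN are limited by their few reads.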
